A study of Homo sapiens with 12 samples.

Results

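The E2F and RB family was followed through the transcriptomes of NCI-H295R cells under 2 inhibitors of cortisol synthesis. Its 10 members were picked by gene symbol, out of 60662 genes in the table, and are the 7 E2F genes E2F1, E2F2, E2F3, E2F4, E2F5, E2F7 and E2F8 and the 3 pocket protein genes RB1, RBL1 and RBL2. NCI-H295R is an established line of human adrenocortical carcinoma cells that makes cortisol, and it was the only line studied. Confluent cultures were held without serum for 12 h and were then given vehicle (VEH, 0.1% DMSO), CJ28 at 30 µM or metyrapone (MET) at 30 µM for 24 h. CJ28 is a benzimidazolylurea derivative made for the study, and MET is a clinically used blocker of the last enzyme of cortisol synthesis. Each group had 4 samples, which the series text calls biological replicates without saying which cultures they came from, so the p-values measure the spread between these samples.

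E2F proteins bind DNA as partners of DP proteins and switch the genes that carry a cell from G1 into S phase. E2F1, E2F2 and E2F3 activate these genes, RB1 holds the activators back until cyclin-dependent kinases phosphorylate it, E2F4 and E2F5 work mainly as repressors together with RBL1 (p107) and RBL2 (p130), and the atypical E2F7 and E2F8 repress without a DP partner. E2F1, E2F2, E2F7, E2F8 and RBL1 are themselves known targets of E2F proteins, and CDKN2A, CDK4 and RB1 are among the genes altered in adrenocortical carcinoma.

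The promoter sequences of the members are shown because several of these genes are read out by the family itself. RefSeq promoter windows (GRCh38.p14, from 250 bases before to 50 after an annotated transcript start) were matched by symbol for 8 of the 10 members, and E2F5 and E2F8 had no entry. The windows were searched on both strands for the E2F-type words TTTCCCGC, TTTCGCGC, TTTGCCGC and TTTGGCGC and for the NF-Y box and CHR words named below, and no match of one motif overlapped a match of another in these windows. The 150 bases before the start follow, 5′ to 3′ on the strand of the gene, with E2F-type words in capitals.
E2F1 (chr20:33686386-33686535, minus strand): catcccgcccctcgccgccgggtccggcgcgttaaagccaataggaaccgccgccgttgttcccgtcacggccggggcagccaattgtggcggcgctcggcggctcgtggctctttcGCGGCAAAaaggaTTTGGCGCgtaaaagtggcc
E2F2 (chr1:23531234-23531383, minus strand): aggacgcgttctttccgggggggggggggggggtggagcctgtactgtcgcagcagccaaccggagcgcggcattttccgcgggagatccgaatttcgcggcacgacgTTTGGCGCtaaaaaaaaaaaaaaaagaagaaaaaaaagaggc
E2F3 (chr6:20401729-20401878, plus strand): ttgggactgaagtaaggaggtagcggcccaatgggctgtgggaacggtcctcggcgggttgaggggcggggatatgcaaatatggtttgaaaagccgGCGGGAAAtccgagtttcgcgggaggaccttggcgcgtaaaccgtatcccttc
E2F4 (chr16:67192005-67192154, plus strand): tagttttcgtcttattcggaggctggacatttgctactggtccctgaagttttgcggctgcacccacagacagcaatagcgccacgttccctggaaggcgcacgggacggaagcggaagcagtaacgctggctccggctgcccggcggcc
E2F7 (chr12:77065570-77065719, minus strand): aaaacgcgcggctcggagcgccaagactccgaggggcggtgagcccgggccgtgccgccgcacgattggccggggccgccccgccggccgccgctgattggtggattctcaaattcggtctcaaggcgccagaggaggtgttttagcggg
RBL1 (chr20:37095998-37096147, minus strand): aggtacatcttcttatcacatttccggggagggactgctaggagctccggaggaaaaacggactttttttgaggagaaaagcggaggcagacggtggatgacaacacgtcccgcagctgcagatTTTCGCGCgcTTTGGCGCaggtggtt

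E2F1 held 2 such words, at positions -33 to -26 and -20 to -13 from the start. E2F2 held 1 word at -42 to -35, the first of the 2 E2F3 windows held 1 at -53 to -46, and RBL1 held 2, at -26 to -19 and -16 to -9. At least 1 E2F-type word was found in 3.31% of all 35116 windows in the table. E2F4 and E2F7 had none of the 4 words in their windows. The E2F7 window held the NF-Y box CCAAT 4 times, the E2F1 window held it 3 times, and the first E2F3 window held it 4 times. That E2F3 window also held 1 CHR word, TTTGAA. The first RBL2 window held 1 CHR word and the second held 1 NF-Y box. At least 1 NF-Y box was found in 34.6% of windows, and at least 1 CHR word in 15.2%. The RB1 window in the table lies around a start 172724 bases inside the gene, and the 2 RBL2 windows lie 494 and 1642 bases inside, so those sequences are not shown. The stretch printed for RBL1 also overlaps an exon of another annotated gene. A match of letters is a description of these windows and not a bound site.

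**Figure D1:**
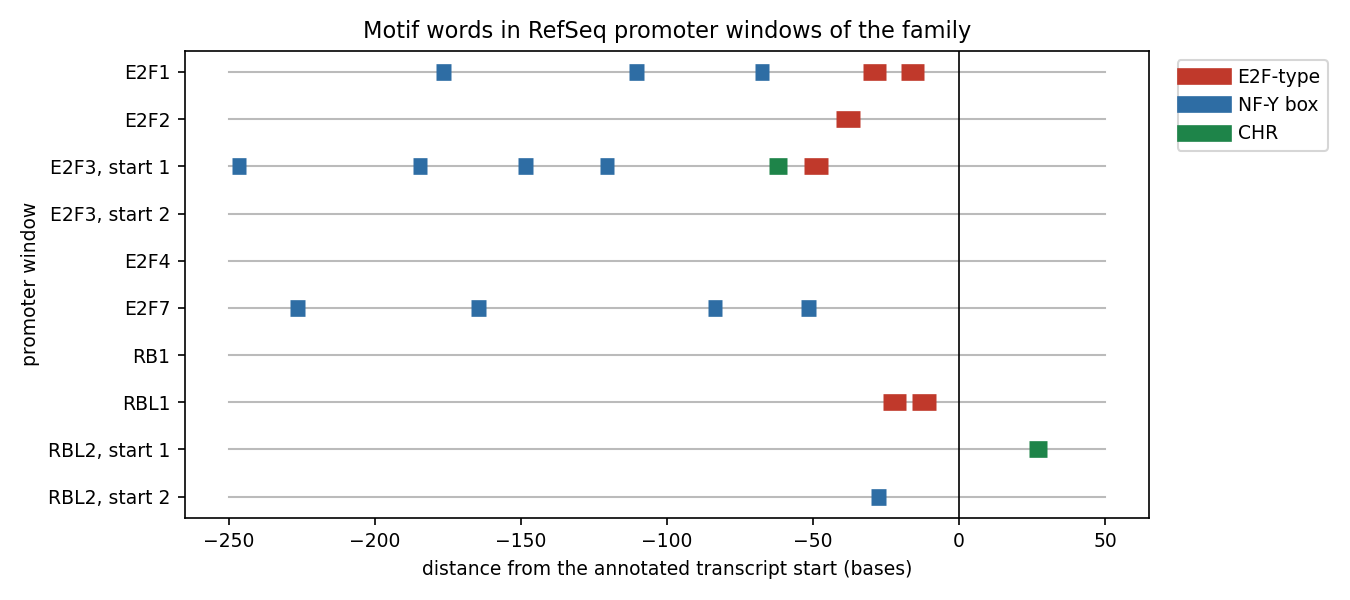
Positions of E2F-type words (red), NF-Y boxes (blue) and CHR words (green) in the promoter windows of 8 members, as the distance in bases from the annotated transcript start. E2F-type words sit within 53 bases before the start in E2F1, E2F2, the first E2F3 window and RBL1.

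The values are TPM, a library's transcripts scaled to a fixed total, which are corrected for transcript length and so allow genes to be compared within a sample. Every sample has that same total, so a gene's TPM also falls when other RNAs take a larger share. The share of TPM in nuclear protein-coding genes was 24.3 to 24.8% in VEH, 24.1 to 24.6% in MET and 21.3 to 21.4% in CJ28, while RN7SL1 and RN7SL2, the RNAs of the signal recognition particle, took 29.7 to 32.7%, 31.4 to 32.9% and 36.0 to 38.2% in that order. For this reason the members' changes from VEH with CJ28 are given on the deposited scale and after median-of-ratios scaling over 22436 genes, whose factors were 1.01 to 1.07 for VEH, 1.01 to 1.03 for MET and 0.917 to 0.950 for CJ28. The adrenocortical markers NR5A1, STAR, CYP11A1, CYP17A1 and INHA summed to 242 to 251 TPM in VEH, to 240 to 256 in MET and to 91.8 to 98.2 in CJ28. The 8 markers of blood, endothelial, fibroblast and chromaffin cells summed to between 1.00 and 2.87 TPM in every sample. TH, the chromaffin enzyme, was listed at 0 throughout. CHGA, the other chromaffin marker, averaged 0.81 TPM in VEH, 0.86 in MET and 0.54 in CJ28. It reached 1.17 TPM, the highest value of any of the 8 in any sample. The table does not give the reads behind a value.

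A gene was tested if 4 or more samples had 0.5 TPM or more, and all 10 members were above this level in all 12 samples. In VEH, E2F4 was the most abundant at 24.5 ± 1.14 TPM (SD, n = 4), followed by RBL2 at 13.0 ± 0.629 and E2F1 at 12.2 ± 0.324. RB1 came next at 8.93 ± 0.290 TPM, then RBL1 at 8.01 ± 0.275 and E2F7 at 7.83 ± 0.707. The lowest 4 were E2F3 at 4.31 ± 0.287, E2F2 at 3.15 ± 0.503, E2F8 at 2.49 ± 0.0874 and E2F5 at 2.26 ± 0.217 TPM. In this order RBL2 and E2F1, RBL1 and E2F7, E2F2 and E2F8, and E2F8 and E2F5 overlapped between neighbours, and the other neighbours did not. The order was the same in MET. In CJ28, E2F5 moved from rank 10 to rank 6, above E2F7, E2F3, E2F2 and E2F8, without overlap with its neighbours on either side.

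**Figure D2:**
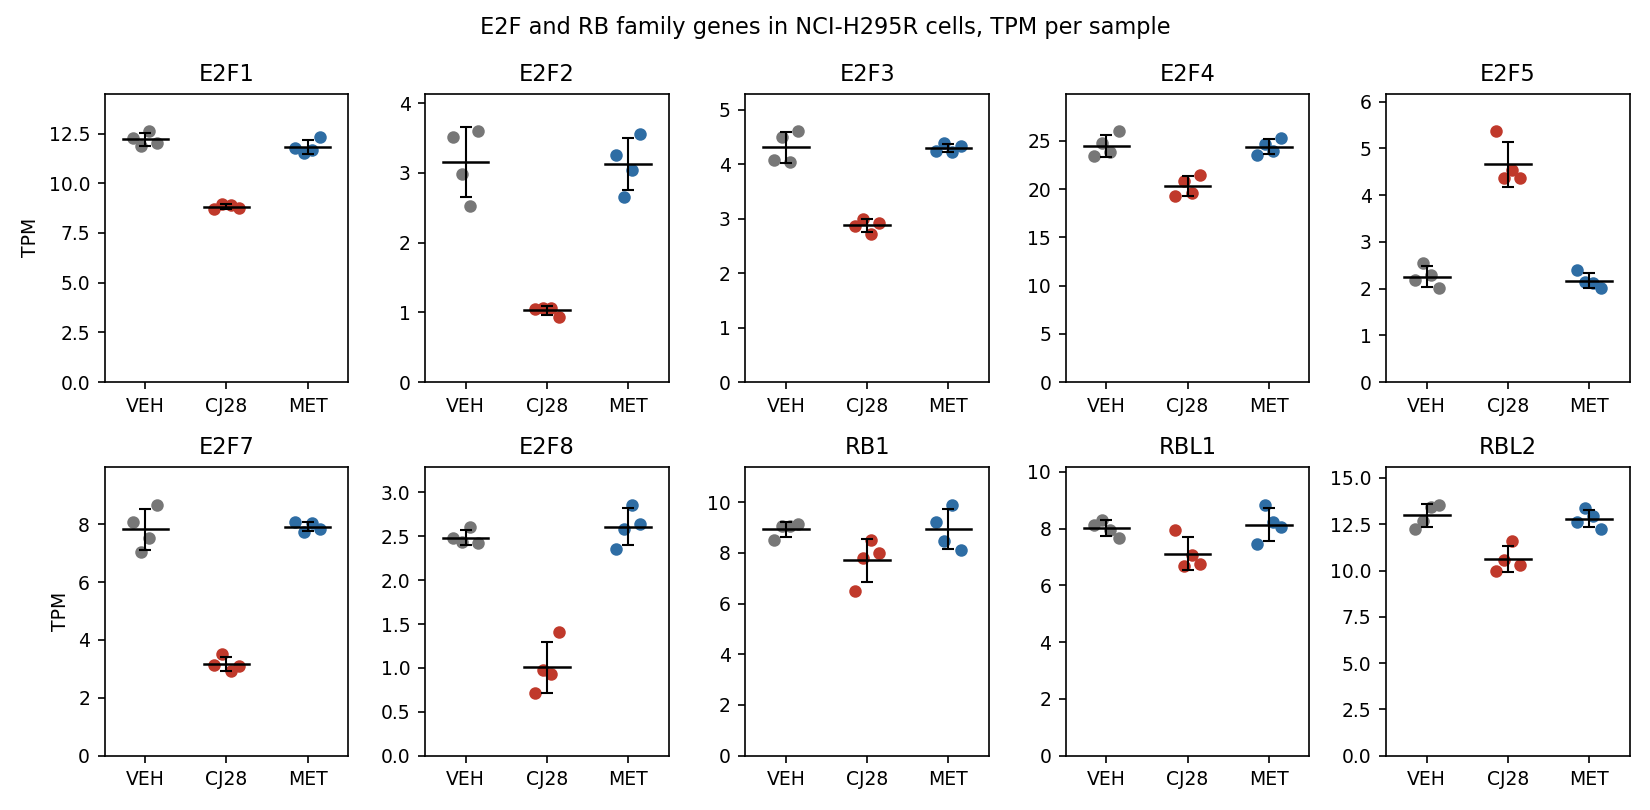
TPM of each member in the 4 samples of VEH (grey), CJ28 (red) and MET (blue), with the group mean (bar) and SD (whiskers), each panel on its own axis from 0. The CJ28 samples lie below all VEH samples for 7 members and above them for E2F5, and overlap them for RB1 and RBL1, while MET overlaps VEH for every member.

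With CJ28, 9 of the 10 members were lower than in VEH and 1, E2F5, was higher, at an adjusted p under 0.05 over all 16815 genes tested. Of all genes tested, 37.1% were lower and 19.9% higher by the same call. The CJ28 and VEH samples did not overlap for 7 members that were lower and for E2F5, against 32.7% of all genes without overlap and lower and 17.7% without overlap and higher. E2F2, E2F7 and E2F8 were called and fell by more than 1 on the log2 scale, while 6.06% of the genes tested were called with a fall of at least that size. E2F5 was called and rose by more than 1, while 2.3% of the genes tested were called with a rise of at least that size. The median log2 change of the members was -0.38, beside -0.13 for all genes tested. After scaling, 6 members were lower (26.3% of all genes) and 1 was higher (29.3% of all genes), with RB1, RBL1 and RBL2 no longer called. With TPM recomputed over nuclear protein-coding genes, 5 were lower (26.3%) and E2F5 was higher (39.2%), with E2F4 dropping out as well. Bulk RNA cannot tell fewer cells in a given state from less of an RNA per cell.

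Among the activators, E2F2 changed most. E2F2 measured 3.51, 2.98, 2.52 and 3.60 TPM in VEH, 1.05, 1.07, 1.07 and 0.94 TPM in the CJ28 samples and 3.26, 2.66, 3.04 and 3.56 TPM in the MET samples. All CJ28 samples lay close together and far below the other groups, which shared one range. E2F2 fell by 1.51 on the log2 scale (SE 0.12, adjusted p = 3.24e-07), and by 1.37 after scaling, and CJ28 and VEH differed by an exact permutation test with p = 0.0286, the smallest two-sided value that 4 against 4 samples allow.

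E2F1, the founding member, which also takes part in apoptosis, measured 12.3, 11.9, 12.6 and 12.0 TPM in VEH, 8.71, 8.94, 8.91 and 8.74 TPM in the CJ28 samples and 11.8, 11.5, 11.7 and 12.3 TPM in the MET samples. The CJ28 samples were low without overlap, and MET overlapped the lower part of the VEH range. The E2F1 level in CJ28 was 0.723 times that in VEH, a fall by 0.46 on the log2 scale (SE 0.04, adjusted p = 3.86e-07; exact permutation p = 0.0286). Scaling left E2F1 lower at -0.31 (adjusted p = 9.28e-05), and over nuclear protein-coding genes it was lower at -0.26 (adjusted p = 1.19e-04).

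E2F3, an activator amplified in some bladder cancers, measured 4.08, 4.50, 4.05 and 4.61 TPM in VEH, 2.87, 2.99, 2.72 and 2.93 TPM in the CJ28 samples and 4.24, 4.39, 4.23 and 4.33 TPM in the MET samples. Every CJ28 sample was below every VEH sample, and MET fell inside the VEH range. E2F3 fell by 0.57 on the log2 scale (SE 0.06, adjusted p = 4.36e-06; exact permutation p = 0.0286) and was at -0.42 after scaling.

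The repressors E2F4 and E2F5 went opposite ways. E2F4, the main E2F of quiescent cells, measured 23.4, 24.7, 23.9 and 26.0 TPM in VEH, 19.3, 20.8, 19.6 and 21.5 TPM in the CJ28 samples and 23.6, 24.7, 23.9 and 25.3 TPM in the MET samples. The groups CJ28 and VEH did not overlap, though the gap between them was small. E2F4 fell by 0.27 on the log2 scale (SE 0.05, adjusted p = 2.79e-04; exact permutation p = 0.0286), less than the other E2F genes that fell. It stood at -0.12 after scaling (adjusted p = 0.0232) and at -0.07 over nuclear protein-coding genes (adjusted p = 0.209).

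E2F5, which shares with E2F4 the binding of RBL1 and RBL2, measured 2.19, 2.54, 2.29 and 2.02 TPM in VEH, 5.37, 4.36, 4.53 and 4.37 TPM in the CJ28 samples and 2.40, 2.15, 2.12 and 2.02 TPM in the MET samples. The lowest CJ28 sample was well above the highest sample of the other groups. The CJ28 mean was 2.06 times the VEH mean, a log2 rise of 1.01 (SE 0.09, adjusted p = 1.10e-06; exact permutation p = 0.0286). E2F5 was at 1.16 after scaling and at 1.24 over nuclear protein-coding genes, and without the first CJ28 sample, the highest, the rise was 0.94.

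The atypical repressors both fell. E2F7 measured 8.09, 7.05, 7.51 and 8.68 TPM in VEH, 3.14, 3.51, 2.92 and 3.11 TPM in the CJ28 samples and 8.07, 7.72, 8.03 and 7.85 TPM in the MET samples. The CJ28 samples formed a tight low group, and MET lay inside the VEH range. E2F7 had the smallest p of the family, with a fall by 1.28 on the log2 scale (SE 0.07, adjusted p = 1.13e-08; exact permutation p = 0.0286) and by 1.13 after scaling.

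E2F8, which can pair with E2F7, measured 2.48, 2.43, 2.61 and 2.42 TPM in VEH, 0.71, 0.98, 0.93 and 1.41 TPM in the CJ28 samples and 2.35, 2.58, 2.86 and 2.64 TPM in the MET samples. The CJ28 samples spread widely, the fourth being the highest and the first the lowest, and all were below VEH. E2F8 fell by 1.26 on the log2 scale (SE 0.15, adjusted p = 1.39e-05; exact permutation p = 0.0286) and by 1.12 after scaling. With a pseudocount of 1 in place of 0.1, which compresses low values, its fall was 0.81.

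Among the pocket proteins, RB1, the retinoblastoma tumour suppressor, measured 8.50, 9.06, 9.05 and 9.12 TPM in VEH, 6.50, 7.79, 8.51 and 8.0 TPM in the CJ28 samples and 9.21, 8.46, 9.90 and 8.13 TPM in the MET samples. The third CJ28 sample lay just above the lowest VEH sample, so the groups overlapped. RB1 was lower by the call over all genes, at -0.22 on the log2 scale (SE 0.08, adjusted p = 0.0375), while the exact permutation test gave p = 0.0571. After scaling it was at -0.07 (adjusted p = 0.542). The call was lost on leaving out VEH sample 2, 3 or 4 or CJ28 sample 1 or 2, and without CJ28 sample 1 the value was -0.14 (adjusted p = 0.107).

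RBL1, which is induced by E2F proteins as cells enter the cycle, measured 8.11, 8.31, 7.95 and 7.66 TPM in VEH, 7.94, 6.67, 7.06 and 6.76 TPM in the CJ28 samples and 7.44, 8.84, 8.22 and 8.06 TPM in the MET samples. The first CJ28 sample lay among the VEH samples and the other CJ28 samples below them. RBL1 was called lower at -0.17 on the log2 scale (SE 0.07, adjusted p = 0.0396), with an exact permutation p of 0.0571. It stood at -0.02 after scaling (adjusted p = 0.805) and at 0.03 over nuclear protein-coding genes (adjusted p = 0.703), so its direction depended on the scale. The call was lost on leaving out VEH sample 1, 2 or 3 or CJ28 sample 2, 3 or 4, with a largest adjusted p of 0.109.

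RBL2, the pocket protein of quiescent cells, measured 12.2, 12.7, 13.4 and 13.6 TPM in VEH, 9.99, 10.6, 11.6 and 10.3 TPM in the CJ28 samples and 12.6, 13.4, 13.0 and 12.3 TPM in the MET samples. CJ28 was lower than VEH in every sample. RBL2 fell by 0.29 on the log2 scale (SE 0.05, adjusted p = 5.86e-04; exact permutation p = 0.0286) and was at -0.14 after scaling (adjusted p = 0.0717). Within CJ28, the first sample was the lowest for E2F1, E2F4, E2F8, RB1 and RBL2 and the highest for E2F5 and RBL1.

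**Figure D3:**
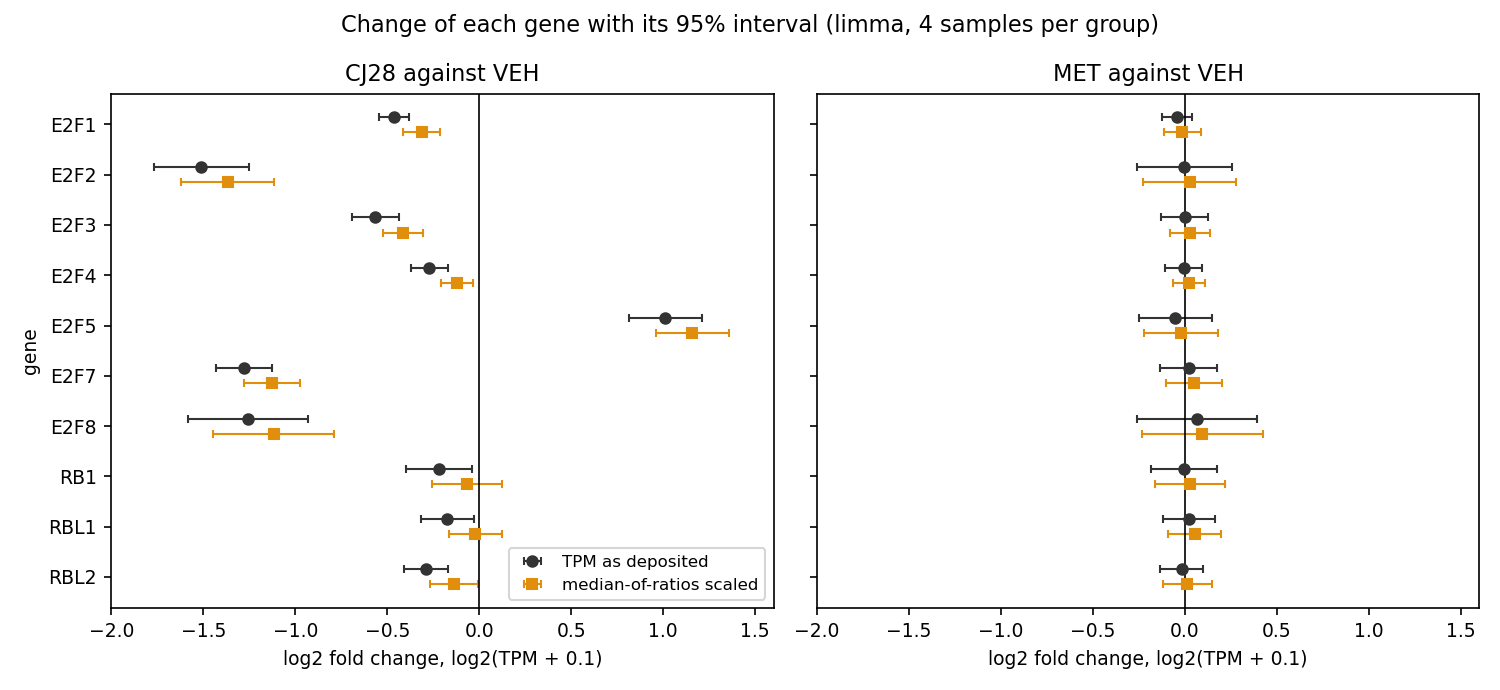
Log2 fold change of each member with its 95% interval from limma, for CJ28 against VEH (left) and MET against VEH (right), on the deposited TPM (black circles) and after median-of-ratios scaling (orange squares). The largest fall with CJ28 is that of E2F2 (-1.51) and the single rise that of E2F5 (1.01). After scaling, the CJ28 intervals of RB1 and RBL1 include 0, and those of RBL2 and E2F4 end just below it. All MET intervals include 0.

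Scaling and the share of other RNAs cancel in a ratio between members of one sample, so ratios of summed TPM are given as a description, without a test. The activators E2F1 to E2F3 summed to 19.7 ± 0.480 TPM in VEH, 19.2 ± 0.698 in MET and 12.7 ± 0.181 in CJ28, and E2F7 with E2F8 to 10.3 ± 0.687, 10.5 ± 0.256 and 4.18 ± 0.378 in that order (SD, n = 4). Activators stood to atypical repressors as 1.91 ± 0.0932 in VEH and as 3.07 ± 0.262 in CJ28, with ranges of 1.82 to 2.04 and 2.79 to 3.30. Both classes fell, and the atypical repressors fell further.

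Activators stood to pocket proteins as 0.658 ± 0.0257 in VEH and 0.502 ± 0.0242 in CJ28, without overlap. E2F4 and E2F5 summed to 26.8 ± 1.09 TPM in VEH and 25.0 ± 0.727 in CJ28, ranges that overlapped. Their ratio to the pocket proteins was 0.895 ± 0.0278 in VEH and 0.984 ± 0.0647 in CJ28, which overlapped. Activators to E2F4 with E2F5 changed from 0.735 ± 0.0286 to 0.511 ± 0.0161, again without overlap. Weighting genes equally, by means of log2 values, moved the log2 difference between CJ28 and VEH from 0.14 to 0.60 for E2F4 with E2F5 to pocket proteins, from -0.53 to -1.22 for activators to E2F4 with E2F5, from -0.39 to -0.62 for activators to pocket proteins and from 0.68 to 0.42 for activators to atypical repressors.

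Pairs of genes showed where the balance shifted. E2F5 stood to E2F4 as 0.0924 ± 0.0106 in VEH and as 0.231 ± 0.0341 in CJ28. E2F7 to E2F1 went from 0.642 ± 0.0610 to 0.359 ± 0.0266 and E2F2 to E2F1 from 0.259 ± 0.0444 to 0.117 ± 0.00629, with no overlap in any of these pairs. In contrast, E2F8 to E2F7 was 0.319 ± 0.0329 in VEH and 0.319 ± 0.0971 in CJ28, and RBL1 to RB1 (0.897 ± 0.0492 and 0.938 ± 0.189), RBL2 to RB1 (1.45 ± 0.0416 and 1.39 ± 0.107) and E2F1 to RB1 (1.37 ± 0.0638 and 1.16 ± 0.129) overlapped between the groups. In MET every one of these ratios overlapped VEH.

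The 7 E2F genes together had 56.8 ± 1.77 TPM in VEH, 56.3 ± 1.16 in MET and 41.9 ± 1.13 in CJ28. E2F5 made up 3.99 ± 0.468% of this pool in VEH and 11.1 ± 1.35% in CJ28, and E2F4 made up 43.2 ± 1.02% and 48.5 ± 1.29%. The shares of E2F7 (13.8 ± 0.944% and 7.57 ± 0.483%), E2F2 (5.55 ± 0.783% and 2.47 ± 0.194%) and E2F8 (4.38 ± 0.260% and 2.40 ± 0.647%) were smaller in CJ28, and the share of E2F3 was 7.59 ± 0.363% and 6.87 ± 0.151%. E2F1 kept to 21.5 ± 1.06% and 21.1 ± 0.642%, ranges that overlapped. Within the pocket proteins, which summed to 29.9 ± 0.732 TPM in VEH and 25.4 ± 1.21 in CJ28, the shares of RB1, RBL1 and RBL2 overlapped between the groups.

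**Figure D4:**
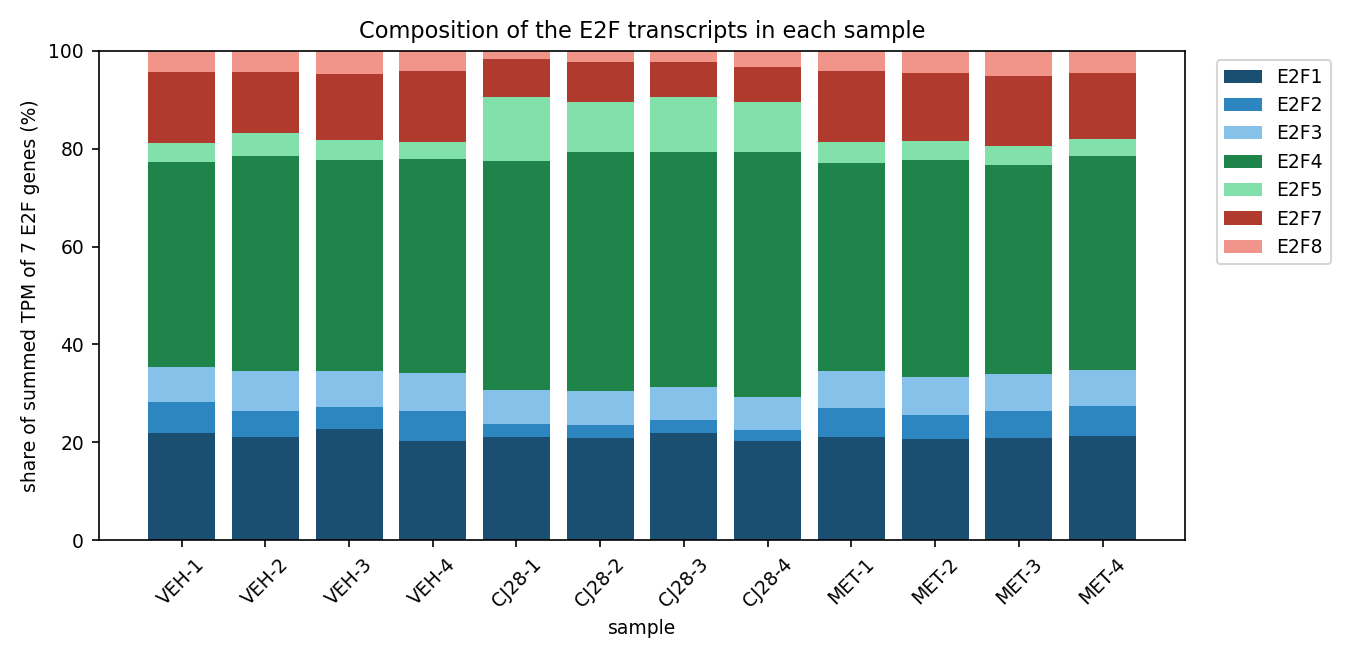
Share of the summed TPM of the 7 E2F genes taken by each of them (stacked bars, in percent) in each of the 12 samples. E2F5 (light green) takes 10.2 to 13.1% in the CJ28 samples and 3.40 to 4.53% in the VEH samples, and E2F7 and E2F8 (reds) take less in CJ28.

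With MET, which was given at the same dose and for the same time, none of the members was called in either direction, 0 of 10, while 1 of all genes tested was, 0.00595%. That gene was H4C12, a histone H4 gene, named here after its value was seen. At an unadjusted p under 0.05, limma gave 0 of 10 members and 874 of the 16815 genes tested. The MET and VEH ranges overlapped for every member, while 2.81% of the genes tested did not overlap between these groups. The log2 changes of the members ran from -0.05 (E2F5) to 0.06 (E2F8), with a smallest adjusted p of 0.956, and their 95% intervals lay between -0.26 and 0.39. The narrowest interval was that of E2F1, from -0.13 to 0.04. The interval of E2F8 was the widest, from -0.26 to 0.39.

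Set directly against MET, CJ28 lowered 9 members and raised 1, E2F5, beside 34.6% of all genes lower and 20.9% higher. This comparison shares the CJ28 samples with that of CJ28 and VEH, and the comparisons with VEH share the VEH samples. E2F2 was lower in CJ28 than in MET by 1.51 on the log2 scale and lower than in VEH by 1.51 too. E2F7 was at -1.30 against MET (SE 0.07, adjusted p = 1.02e-08), E2F8 at -1.32 (SE 0.15, adjusted p = 9.24e-06) and E2F5 at 1.06 (SE 0.09, adjusted p = 7.06e-07). RB1 was at -0.21 (SE 0.08, adjusted p = 0.0420) and RBL1 at -0.19 (SE 0.07, adjusted p = 0.0238), and the exact permutation p of these genes was 0.0857 and 0.0571. After scaling, RB1, RBL1 and RBL2 were not called against MET either, which left 6 members lower and E2F5 higher. Of the 16815 genes tested, 4391 were lower and 4826 higher against MET on that scale.

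The genes that the family acts on and those that act on it were taken from lists. Each list is described by its counts with CJ28 against VEH. Counts on the deposited scale are to be read beside the 37.1% of all genes lower and 19.9% higher. Counts after scaling belong beside 26.3% lower and 29.3% higher. Those over nuclear protein-coding genes belong beside 26.3% lower and 39.2% higher. Of 26 G1/S target genes of E2F, all 26 were lower and none higher, with a median log2 change of -0.87, and 24 stayed lower after scaling, the exceptions being CDT1 (-0.09) and CHEK1 (-0.11). The largest falls were those of RRM2, a subunit of ribonucleotide reductase, from 54.2 ± 5.44 to 7.74 ± 0.786 TPM (log2 change -2.79), of CCNE2, a cyclin that drives CDK2, from 11.6 ± 0.590 to 2.22 ± 0.118 TPM (-2.33) and of UHRF1, a partner of DNA maintenance methylation (-1.84). These 3 changes were larger in size than that of any member of the family.

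The DP partners TFDP1 and TFDP2, with which E2F1 to E2F5 bind DNA, were lower at -0.82 and -0.45 on the log2 scale, and TFDP3 was listed at 0 in all samples. MYBL2 and FOXM1, which take over the MuvB core from E2F4 and RBL2 late in the cycle, were lower at -1.07 and -0.91. Of the 5 genes of the MuvB core itself, 3 were lower (RBBP4 at -0.65, LIN9 at -0.47 and LIN52 at -0.27), LIN54 was higher at 0.14 and LIN37 was not called. After scaling 2 of these 5 were lower and 2 higher. In the list of E2F6 and its complex, a repressor that does not need pocket proteins, 4 of 8 were lower and 2 higher, among them CBX3 at -0.73, L3MBTL2 at -0.43 and PCGF6 at 0.29. This list had 3 lower and 2 higher after scaling, and 2 lower and 3 higher over nuclear protein-coding genes.

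Of the kinases and cyclins that phosphorylate RB1, RBL1 and RBL2, 3 of the 5 tested were lower and 1 was higher. CCND2, a D-type cyclin, was at -1.37, CCND3 at -0.88 and CDK2 at -0.66, while CDK6 rose by 0.53 and CDK4 was at -0.06 (adjusted p = 0.0862). After scaling CDK4 was called higher at 0.09 (adjusted p = 0.0230), and the list had 3 lower and 2 higher. CCND1 was too low to test. Of the CDK inhibitors, 4 of 6 tested were lower and none higher, led by CDKN2C, an INK4 inhibitor of CDK4 and CDK6, at -1.34, with CDKN2D at -0.58 and CDKN2B at -0.45. CDKN1B moved from -0.02 on the deposited scale to 0.13 after scaling, where it was called higher (adjusted p = 0.0157) and the list had 3 lower and 1 higher.

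Of 8 corepressors recruited by RB1, 7 were lower, with SUV39H1 at -0.69, SMARCA4 at -0.64 and HDAC1 at -0.56, and SIN3B was higher at 0.38. Of 6 genes for breakdown of E2F proteins and dephosphorylation of RB1, 4 were lower, among them CCNF, the F-box cyclin that marks E2F proteins for breakdown, at -1.37, SKP2 at -1.02 and PPP1CC at -0.75, and after scaling PPP1CB was called higher at 0.28. With MET, no gene of any of these lists was called, and their log2 changes lay between -0.23 and 0.10.

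**Figure D5:**
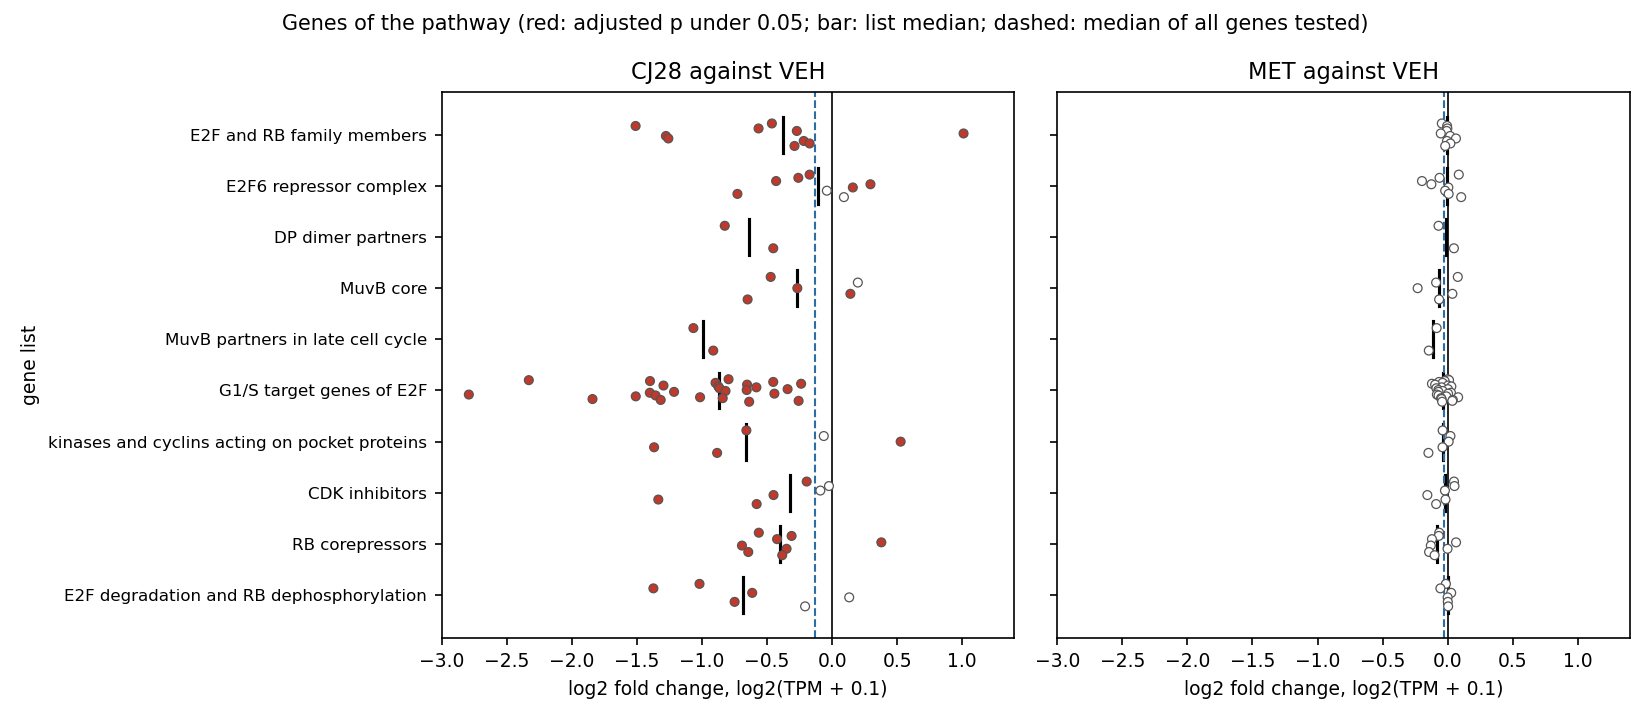
Log2 fold changes of the members and of the genes in 9 lists of the pathway for CJ28 against VEH (left) and MET against VEH (right), 1 circle per gene tested, filled red at an adjusted p under 0.05, with the list median (bar) and the median of all genes tested (dashed). All 26 G1/S targets lie left of 0 with CJ28, E2F5 is the rightmost point at 1.01, and no circle is filled with MET.

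The genes whose pattern over the 12 samples was most like that of E2F1 were TRIM28, ARF3, MSN, PHF23 and PRELID1, by the SD of the log2 ratio of TPM to E2F1 among 13435 genes whose mean reached 1 TPM. These SDs were 0.0398 to 0.0424, beside a median of 0.268 over the genes compared. For RB1 the nearest were KPNA1, CORO1C, CYP2E1, THAP1 and ECHDC1, with SDs of 0.0686 to 0.0841 beside a median of 0.25. The members themselves were left out of the genes compared, so whether they lie near each other was not examined. All points share their libraries and the scale of TPM.

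Several members overlap other genes on the opposite strand, and whether the counting used strand is not given in the sources used here, so shared reads cannot be told apart. RBIS, which overlaps E2F5, had 36.5 ± 1.68 TPM in VEH and 28.3 ± 0.265 in CJ28, lower by 0.36 on the log2 scale while E2F5 rose. AKTIP, which overlaps RBL2, had 6.78 ± 0.535 TPM in VEH and 10.3 ± 0.838 in CJ28, higher by 0.59 while RBL2 fell. RCBTB2, which overlaps RB1, had 3.25 ± 0.163 TPM in VEH and 2.39 ± 0.280 in CJ28, at -0.43 in the same direction as RB1. RNU6-1153P, which overlaps RBL2, was at 0 TPM in VEH and MET. In CJ28 it averaged 4.845 ± 9.69 TPM, which came from its highest sample alone, at 19.38 TPM, and it was not tested. RN7SL128P, which overlaps E2F3, had 1.31 ± 0.458 TPM in VEH and 2.465 ± 1.67 in CJ28 and was not called (limma adjusted p = 0.192). The named pseudogenes of E2F3 and E2F4 reached at most 0.03 TPM in any sample. On GRCh38, as the table gives it, RB1 spans chr13:48303726-48599436 (plus strand, ENSG00000139687.15), RBL2 chr16:53433977-53491648 (plus strand, ENSG00000103479.16) and E2F5 chr8:85177154-85217158 (plus strand, ENSG00000133740.11). E2F1 to E2F4 span, in turn, E2F1 chr20:33675477-33686385 (minus strand, ENSG00000101412.13), E2F2 chr1:23506438-23531233 (minus strand, ENSG00000007968.7), E2F3 chr6:20401879-20493714 (plus strand, ENSG00000112242.15) and E2F4 chr16:67192155-67198918 (plus strand, ENSG00000205250.9). The other members are E2F7 chr12:77021248-77065569 (minus strand, ENSG00000165891.16), E2F8 chr11:19224063-19241620 (minus strand, ENSG00000129173.13) and RBL1 chr20:36996349-37095997 (minus strand, ENSG00000080839.12).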

How the data were processed

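RNA-seq of 12 samples of NCI-H295R cells, 4 each of VEH, CJ28 and MET, was examined. Groups and replicate numbers were taken from the labels. The deposited table holds TPM per gene, which the authors obtained from stranded, ribosomal RNA-depleted libraries with cutadapt (version 2.8) for trimming, STAR (version 2.7.10b) for mapping to GRCh38 and RSEM (version 1.3.3) for gene values, as the submitters' processing notes and the methods name them. RSEM divides reads that fit several genes. The annotation release is not given in the sources used here, and counts were not analysed here, so depth per value is unknown and no count model was fitted.

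All 12 samples entered 1 limma fit (version 3.58.1, eBayes with a trend, in R version 4.3.3) of log2(TPM + 0.1), without covariates, for the 16815 genes that reached 0.5 TPM in 4 or more samples. A fold change is on this scale, which understates the change of low genes. P-values were two-sided and adjusted by the Benjamini-Hochberg method over all genes tested. Single members were compared by exact permutation tests of group means. Ratios were taken from summed TPM within a sample. The fit was tested on simulated data. The rest used pandas (version 2.3.3), numpy (version 2.4.6), scipy (version 1.17.1) and, for plots, matplotlib (version 3.10.9) under Python (version 3.11.15).

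The members and lists were chosen with earlier results of these data known. Every member is named, with the 3 genes of largest absolute log2 change among those called in each list, further genes of lists of up to 8 where a value was needed, the genes nearest to E2F1 and RB1, and overlapping genes. CDT1, CHEK1 and H4C12 were named after their values were seen. The settings varied were the pseudocount (1 or 0.01), the filter (none beyond a TPM above 0, or a mean of 1 TPM), the scale (median-of-ratios, or TPM over nuclear protein-coding genes), the fit (2 groups alone, a block for the replicate number, or no trend) and the samples (each left out). Values of any pair of samples differed, the closest pair correlating at 0.972.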

Additional observations from a re-analysis of the deposited data

Results flagged for a closer look

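Each member was examined for a sample apart from the other 3 of its group, in 30 groups of 4, of which chance marks about 1 in 20. In 3 of them a sample stood apart by Dixon's criterion. E2F5 was 5.37 TPM in the first CJ28 sample, against 4.36 to 4.53 in the others, and leaving that sample out left the log2 rise at 0.94. E2F2 was 0.94 TPM in the fourth CJ28 sample, against 1.05 to 1.07 in the others, and without it the log2 change was -1.47. RB1 was 8.5 TPM in the first VEH sample, against 9.05 to 9.12 in the others, which is the sample that the third CJ28 sample exceeded.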

How the results depend on the processing

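E2F1, E2F2, E2F3, E2F5, E2F7 and E2F8 kept their direction and their call for CJ28 against VEH and against MET under every alternative run, with log2 changes against VEH of -0.48 to -0.26, -1.61 to -1.02, -0.59 to -0.37, 0.79 to 1.24, -1.33 to -1.08 and -1.42 to -0.81. With TPM over nuclear protein-coding genes, 5 members were lower against VEH and 5 against MET. Of the 12506 genes tested on that scale, 3294 were lower against VEH and 3165 against MET, while 4907 and 5039 were higher. RBL1 was there at 0.0306 against VEH on the log2 scale, in the other direction. Of 90 values against VEH under settings that kept all samples, 80 kept their side of the threshold, and of 80 with a sample left out, 69 did. The changes were in E2F4, RB1, RBL1 and RBL2. Of 170 MET values, which lay between -0.10 and 0.11, 0 were called by limma and 30 had changed sign. The count of all genes called with MET was 0 with pseudocounts of 1 and 0.01 and with a mean TPM of at least 1 (902, 854 and 713 at an unadjusted p under 0.05), 5 over all genes above 0 and 2 over nuclear protein-coding genes, and was 1 to 2 with a sample left out. The split of calls between CJ28 and VEH was 3346 higher and 6231 lower as deposited, 4925 and 4430 after scaling. With the replicate number as a block, 9546, 1 and 9361 genes were called for CJ28 against VEH, MET against VEH and CJ28 against MET, where the fit without it gave 9577, 1 and 9334, and RBL1 was at an adjusted p of 0.0638 against VEH. Samples of equal number did not deviate together (mean correlations of 0.024, -0.024 and -0.048), so the numbers were not read as pairs. With means of log2 values in place of sums, the 4 ratios between classes of members kept their direction with CJ28 but not their size. The cause of these changes was not tested, and without counts the counting error of E2F2, E2F5 and E2F8, the least abundant members, is unknown.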
